A study of Homo sapiens with 12 samples.

Results

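Of 10 genes of dense-core secretory granules and synaptic vesicles (SCG2, SCG3, SCG5, CHGA, CHGB, SYP, VGF, PCSK1, PCSK2 and CPE), 8 had a named row on the arrays, among 18417 genes in all. PCSK1 and PCSK2, the prohormone convertases, were not analysed here. SCG3 and SYP were chosen by their fall with shRNA against UBE4B in these same arrays, so that fall is given as a description with no test. The other 6 measured genes (SCG2, SCG5, CHGA, CHGB, VGF and CPE) joined the set because they encode granins or granule enzymes. Each of the 8 genes had a single transcript cluster, the unit in which these arrays report a gene.

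The arrays were Affymetrix Human Gene 1.0 ST arrays of HEK293T cells, an embryonic kidney line of human origin carrying the SV40 large T antigen. There were 4 groups of 3 arrays each, which were shRNAs against UBE4B together with shRNAs against LSD1 (shUBE4B+shLSD1, the double knockdown), shRNAs against UBE4B alone (shUBE4B), shRNAs against LSD1 alone (shLSD1) and a nontargeting shRNA (shCTRL). All groups were plasmid transfections of 1 line, and RNA was taken 78 h after transfection. Misfolding mutant SOD1 was present in all groups by the paper's account, while the sample labels do not name it. UBE4B is a ubiquitin ligase, and LSD1, encoded by KDM1A, is a histone demethylase that works in the CoREST complex.

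Neurons and endocrine cells store peptide hormones in dense-core granules and classical transmitters in small synaptic vesicles. Granins such as CHGA, CHGB, SCG2 and SCG3 aggregate in the Golgi and help to form the granules, the convertases cut prohormones there, and CPE trims the basic residues left at the cut ends. Synaptophysin (SYP) is an abundant membrane protein of synaptic vesicles. Outside neurons and endocrine cells many of these genes are held down by REST, a repressor that recruits CoREST with LSD1, and several granin promoters respond to cyclic AMP through the factor CREB. HEK293T cells are not an endocrine line, and the values below are those of a kidney-derived line.

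Promoter sequence is shown for the genes that the results turn on (SCG3 and SYP) and for CHGA and VGF, which hold a full cyclic AMP response element. Sequences came from RefSeq on GRCh38.p14. Each window ran from 250 bases before to 50 bases after the transcription start. The table held windows for 6 of the 8 measured genes (SCG3, SYP, SCG5, CHGA, VGF and CPE). Positions are counted from 1 at the start site, with negative numbers before it, and capitals mark the full element TGACGTCA. The 250 bases before the start of SCG3 (chr15:51681253-51681502, plus strand) and of SYP (chrX:49200194-49200443, minus strand) hold no such element on either strand, and so have no capitals. The stretches of CHGA (chr14:92923060-92923149, plus strand) and of VGF (chr7:101165570-101165679, minus strand) end at the base before the start.
SCG3: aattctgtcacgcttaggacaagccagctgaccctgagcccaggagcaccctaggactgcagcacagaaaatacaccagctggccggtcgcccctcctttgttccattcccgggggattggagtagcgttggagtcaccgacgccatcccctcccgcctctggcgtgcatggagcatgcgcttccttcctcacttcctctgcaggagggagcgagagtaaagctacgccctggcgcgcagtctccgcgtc
SYP: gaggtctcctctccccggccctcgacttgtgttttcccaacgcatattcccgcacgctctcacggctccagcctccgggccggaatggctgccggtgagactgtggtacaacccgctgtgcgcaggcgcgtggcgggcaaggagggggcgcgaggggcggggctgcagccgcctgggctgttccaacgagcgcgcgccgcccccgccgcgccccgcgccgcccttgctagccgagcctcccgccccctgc
CHGA: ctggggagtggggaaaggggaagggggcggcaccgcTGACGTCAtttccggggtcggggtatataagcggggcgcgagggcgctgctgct
VGF: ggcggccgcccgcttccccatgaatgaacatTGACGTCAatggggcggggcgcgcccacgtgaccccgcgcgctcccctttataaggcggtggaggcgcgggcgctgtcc

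The full element starts at position -54 in CHGA and at -79 in VGF. It is found on either strand in 1.85% of 35116 promoter windows of the same length. The shorter core TGACG, which is part of the full element, is more common. It lies in 24.6% of all windows, and in those of SCG3, SCG5, CHGA, VGF and CPE, but not in that of SYP. The motif TATAAA, searched on both strands and present in 11.5% of windows, matched in VGF at -32 on the opposite strand and in none of the other 5 windows.

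REST binds a long element whose left part holds CAGCACC and whose right part holds GGACAG. The window of SCG3 holds both parts in this order on the gene's strand, from position 11 and with 8 bases between them. They lie within the transcribed region just after the start (chr15:51681511-51681536, plus strand), and the stretch from position 9 to 34 is shown. Capitals mark the left and right parts.
SCG3 after the start: ttCAGCACCcacagggcGGACAGcgc
Both parts, 2 to 12 bases apart on either strand, were found in 0.142% of all windows and in none of the other 5 windows of the measured genes. The left part alone is in 7.75% of all windows and the right part alone in 20.5%. This search was chosen after the letters of the SCG3 window and the REST values had been seen, in a gene itself chosen for its fall. A match is a description of the sequence only. Whether REST binds there in these cells, or bears on the SCG3 signal, was not tested.

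The targeted mRNAs were lower where their shRNAs were present. The UBE4B signal was 37.4% of control in the double knockdown and 37.8% with shUBE4B, and the KDM1A signal was 46.0% of control in the double knockdown and 41.6% with shLSD1. All values are log2 signals after RMA, a scale on which a difference of 1 is a doubling, and differences between groups were tested with limma with Benjamini-Hochberg adjustment over the 18417 genes. Array medians lay between 7.00 and 7.06. Among all genes, 3.74% were called higher and 3.83% lower at an adjusted p under 0.05 in the double knockdown against control. With shUBE4B against control 5.59% were called higher and 4.47% lower, and with shLSD1 against control 0.505% higher and 0.315% lower. The values measure RNA from whole dishes, in which fewer cells with a transcript and less of it per cell cannot be told apart, and the labels number the replicates as biological without saying how the dishes were kept separate.

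SCG3 (secretogranin III) binds CHGA and cholesterol-rich granule membrane and carries other granins into the granule. The log2 signal of SCG3 (transcript cluster 7983718, chromosome 15) was 4.70, 4.72 and 4.48 in the double knockdown and 4.49, 4.37 and 4.55 with shUBE4B. It was 5.73, 5.45 and 5.45 with shLSD1 and 6.12, 5.52 and 5.91 with shCTRL. All arrays with UBE4B shRNA thus lay below all arrays without it, and the shLSD1 arrays overlapped the control arrays. The means were 4.63 ± 0.13 in the double knockdown, 4.47 ± 0.09 with shUBE4B, 5.54 ± 0.16 with shLSD1 and 5.85 ± 0.30 with shCTRL (SD, n = 3 each).

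By the difference that chose it, SCG3 was 2.33-fold lower than control in the double knockdown (43.0% of control) and 2.60-fold lower with shUBE4B (38.4% of control). In the double knockdown it stood at 53.2% of the shLSD1 level. Against control, shLSD1 alone gave a log2 difference of -0.31 (95% confidence interval -0.59 to -0.03) that did not pass (limma, adjusted p = 0.323), in a comparison that uses the same control arrays. Double knockdown and shUBE4B differed by 0.16 (standard error 0.13, 95% confidence interval -0.12 to 0.44, limma adjusted p = 0.618). This comparison uses the shUBE4B arrays by which SCG3 was chosen, so it is not independent of that choice. The mean signal of SCG3 over the 12 arrays was at the 10.8th percentile of all genes, and RMA gives no call of whether a signal is above background.

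The mean signal of SYP was at the 51.7th percentile of brightness, which depends on the probes and does not rank the genes by level. Its log2 signal (transcript cluster 8172573, chromosome X) was 7.38, 7.41 and 7.45 in the double knockdown and 7.38, 7.31 and 7.13 with shUBE4B. With shLSD1 it was 8.28, 7.97 and 8.21, and with shCTRL 8.38, 8.42 and 8.36. Arrays with UBE4B shRNA again all lay below the other arrays, and the 3 shLSD1 arrays lay between them and the control arrays without overlap.

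Mean SYP signals were 7.41 ± 0.03 in the double knockdown, 7.27 ± 0.13 with shUBE4B, 8.15 ± 0.17 with shLSD1 and 8.39 ± 0.03 with shCTRL (SD, n = 3 each). These are 1.96-fold below control in the double knockdown (50.9% of control) and 2.16-fold below it with shUBE4B (46.3% of control), which is the fall that chose the gene. The shLSD1 difference of -0.23 from control (standard error 0.08, 85.1% of control) did not pass the test (limma, adjusted p = 0.246). In that comparison the arrays of 16.6% of all genes did not overlap. The double knockdown lay 0.14 above shUBE4B (95% confidence interval -0.04 to 0.32, limma adjusted p = 0.498). The shLSD1 comparison uses the control arrays and this one the shUBE4B arrays by which SYP was chosen. Neither is independent of that choice.

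**Figure D1:**
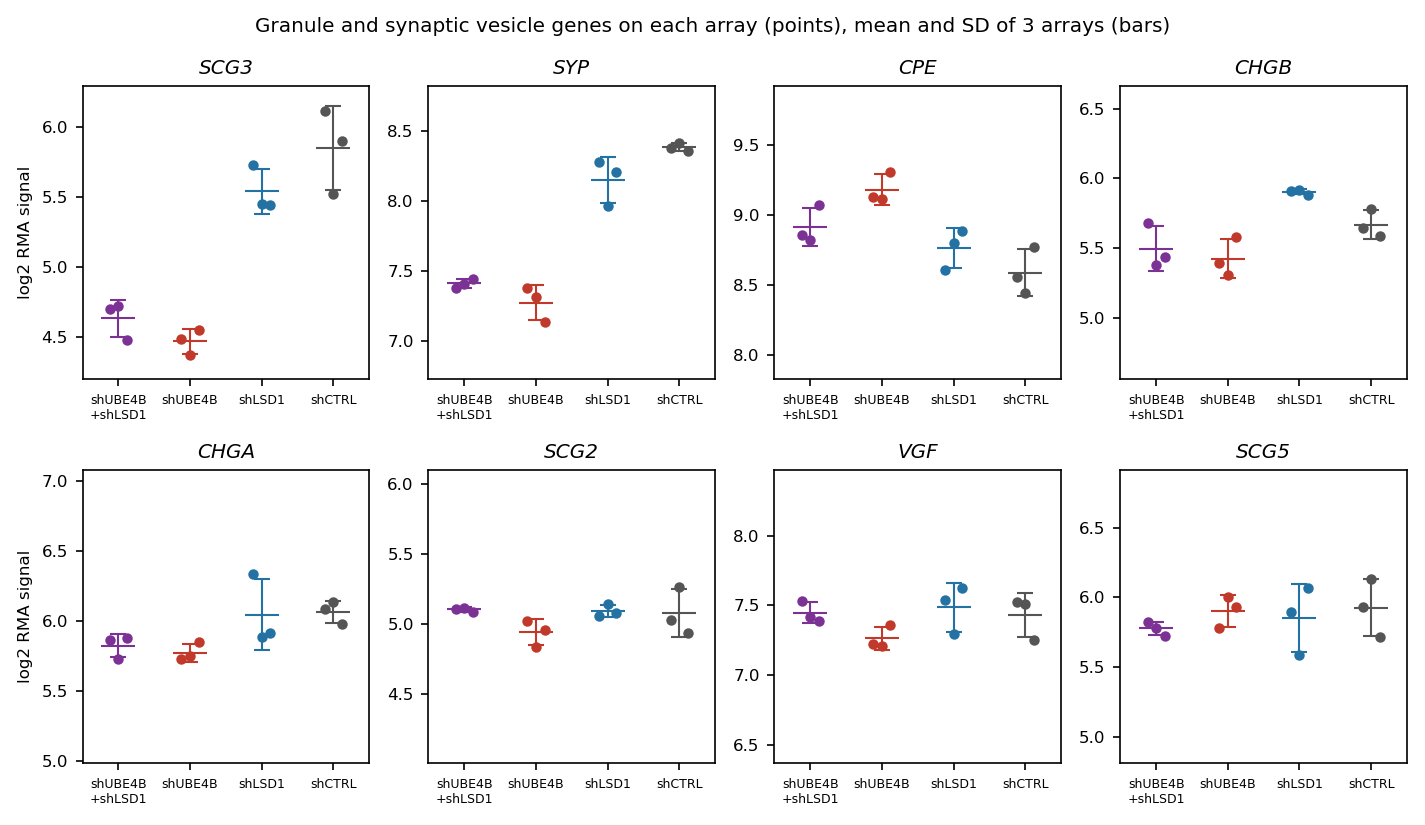
Log2 RMA signal (vertical axes, each spanning the same number of log2 units) of the 8 measured genes in the 4 groups, with a point per array and bars for the mean and SD of 3 arrays. SCG3 and SYP lie lower on all arrays with UBE4B shRNA than on the others, CPE lies higher on those arrays than on all control arrays, and the remaining genes differ by less than 0.5 between group means.

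Among the granule enzymes, CPE (carboxypeptidase E) was the only one of the 6 genes not chosen by readout to be called against control, and it rose. Its log2 signal (transcript cluster 8098204, chromosome 4) was 8.85, 8.82 and 9.07 in the double knockdown, 9.13, 9.11 and 9.31 with shUBE4B, 8.61, 8.80 and 8.88 with shLSD1, and 8.56, 8.44 and 8.77 with shCTRL. All shUBE4B arrays and all double-knockdown arrays were above all control arrays, and the shLSD1 arrays overlapped the control arrays. CPE rose 1.51-fold with shUBE4B (log2 difference 0.59, standard error 0.10, limma adjusted p = 0.0037).

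The double knockdown gave a log2 difference of 0.33 for CPE (standard error 0.10), which did not pass the test (limma, adjusted p = 0.0700) but passed in 6 of 22 alternatives. These were the fits without shCTRL replicate 3 (adjusted p = 0.0309), with trend and robust settings, with a replicate block, after a further quantile normalization, with median-centred arrays and without the 40% dimmest genes (adjusted p down to 0.0105). With shLSD1 the difference from control was 0.18 (limma, adjusted p = 0.499). CPE in the double knockdown lay 0.27 below shUBE4B, with no overlap of arrays (limma, adjusted p = 0.302), and the interaction of the 2 knockdowns was -0.44 (standard error 0.14, limma adjusted p = 0.265). With shUBE4B, CPE thus lay on the other side of control from SCG3 and SYP, and its signal was at the 68.8th percentile of brightness.

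The chromogranins CHGA and CHGB are acidic, calcium-binding proteins that make up much of the granule core. CHGA (transcript cluster 7976322, chromosome 14) had log2 signals of 5.86, 5.73 and 5.88 in the double knockdown, 5.72, 5.75 and 5.85 with shUBE4B, 6.34, 5.89 and 5.91 with shLSD1, and 6.08, 6.13 and 5.98 with shCTRL. Both groups with UBE4B shRNA lay below all control arrays, and the shLSD1 arrays spread more widely. The difference from control was -0.24 in the double knockdown (95% confidence interval -0.46 to -0.02, limma adjusted p = 0.195) and -0.29 with shUBE4B (95% confidence interval -0.51 to -0.07, limma adjusted p = 0.0900), and neither passed. Without shLSD1 replicate 1, the array at 6.34, the shUBE4B difference passed (limma, adjusted p = 0.0226).

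CHGB (transcript cluster 8060805, chromosome 20) had log2 signals of 5.68, 5.38 and 5.43 in the double knockdown and 5.39, 5.31 and 5.58 with shUBE4B. It had 5.91, 5.92 and 5.88 with shLSD1 and 5.64, 5.78 and 5.59 with shCTRL. The shLSD1 arrays were the highest, and the shUBE4B arrays the lowest by mean. Against control, CHGB stood at -0.17 in the double knockdown (adjusted p = 0.305), -0.24 with shUBE4B (adjusted p = 0.1) and 0.23 with shLSD1 (adjusted p = 0.273), all by limma. No comparison with control passed.

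CHGB was lower in the double knockdown than with shLSD1 by 0.41 (standard error 0.09, 75.4% of the shLSD1 level, limma adjusted p = 0.0305), in a comparison that called 2.79% of all genes. That call ended when any of the 3 shLSD1 arrays, or replicate 2 or 3 of the double knockdown, was left out, with adjusted p up to 0.111. CHGB had a dim signal, at the 17.4th percentile.

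The remaining granins passed no test. SCG2 (secretogranin II, the precursor of secretoneurin) had group means of 5.10 ± 0.02, 4.94 ± 0.09, 5.09 ± 0.04 and 5.08 ± 0.17 in the double knockdown, shUBE4B, shLSD1 and shCTRL (SD, n = 3 each). VGF, a neurotrophin-induced granin precursor, had 7.45 ± 0.07, 7.26 ± 0.08, 7.49 ± 0.17 and 7.43 ± 0.16 in the same order, and SCG5 (the chaperone 7B2, which keeps the convertase PCSK2 from acting too early) had 5.78 ± 0.05, 5.90 ± 0.11, 5.85 ± 0.24 and 5.93 ± 0.21. The 95% confidence intervals of the shUBE4B difference from control were -0.31 to 0.04 for SCG2, -0.37 to 0.04 for VGF and -0.28 to 0.23 for SCG5. These intervals are of the array signal. SCG2 and SCG5 were dim, at the 9.9th and 21.1st percentile of brightness, and RMA gives no call of whether their signals were above background.

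**Figure D2:**
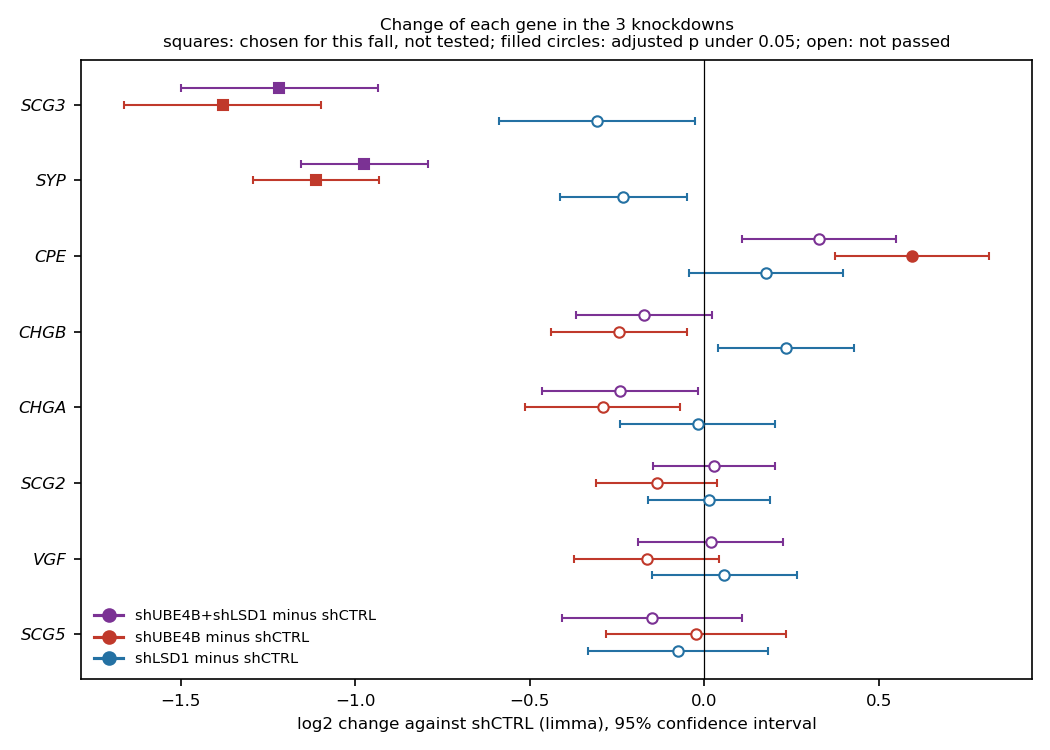
Log2 difference from shCTRL (horizontal axis) with its 95% confidence interval from limma for each of the 8 genes in the double knockdown, with shUBE4B and with shLSD1. Squares mark SCG3 and SYP where their fall chose them and no test applies, the filled circle is CPE with shUBE4B (0.59), and open circles did not pass an adjusted p of 0.05.

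Against control, shUBE4B called 5.59% of all genes higher and 4.47% lower. Counted over the 6 genes not chosen by readout, it gave 1 call higher (CPE) and 0 lower. The double knockdown and shLSD1 gave 0 calls for these 6 genes in limma. At an unadjusted p under 0.05 the count was 2 in the double knockdown (20.7% of all genes), 3 with shUBE4B (27.5% of all genes) and 1 with shLSD1 (13.4% of all genes). Their median log2 difference from control was -0.07 in the double knockdown, -0.15 with shUBE4B and 0.04 with shLSD1, beside -0.01, -0.03 and -0.01 over all genes. Arrays did not overlap with the control arrays for 2 of the 6 in the double knockdown (21.9% of all genes). The count was 3 with shUBE4B (30.3% of all genes) and 1 with shLSD1 (16.6% of all genes). Double knockdown against shUBE4B called none of the 6 and 0.147% of all genes, with 1 of the 6, and 2401 of 18417 genes, at an unadjusted p under 0.05. The interaction called 0 of 18417 genes in limma, which is 0% of them, with 2411 at an unadjusted p under 0.05.

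The search for genes whose signal followed SCG3 and SYP was limited by the span of group means. Most listed granule and vesicle genes differed from control by less than 0.5 with UBE4B shRNA. That the nearest genes lay outside those lists is therefore not a result about the lists. Among 517 genes whose group means span at least 0.5, Pearson's r with SCG3 over the 12 arrays was highest for EMC7 (0.97), CNNM4 (0.96), RAB29 (0.96), PRKAR2A (0.96) and TALDO1 (0.96). For SYP the nearest were TSEN54 (0.99), ENTREP3 (0.99), CNNM4 (0.98), TALDO1 (0.97) and WASF3 (0.97), and SCG3 with SYP gave 0.95. EMC7 is a subunit of the complex that inserts proteins into the endoplasmic reticulum membrane, TALDO1 is transaldolase of the pentose phosphate pathway, and PRKAR2A is a regulatory subunit of protein kinase A. These correlations are a description. The points share their groups, and for SCG3 and SYP all arrays with UBE4B shRNA lie apart from those without it. Both genes were chosen for that fall, so their own r of 0.95 follows in part from the choice.

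Other genes of granule biology, from lists assembled around these members, mostly did not pass. These lists and the marker lists below were chosen with earlier results of these data known. Their counts beside the share of all genes are therefore a description, and an excess over that share is not independent of the choice. Of 11 peptide processing enzymes besides the 10 members, none was called in the double knockdown or with shLSD1. Beside 4.47% of all genes, 1 was lower with shUBE4B. That gene was QPCTL, a Golgi glutaminyl cyclase, at 79.1% of control (limma adjusted p = 0.0183), a call that ended without shUBE4B replicate 2 or 3. PAM, which amidates peptides and is a main granule membrane enzyme, stood at -0.26 in the double knockdown and -0.21 with shUBE4B (adjusted p = 0.234 and 0.275 by limma). None of the 17 genes of granule membrane and biogenesis passed in any comparison with control, by limma.

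Among 26 peptide hormones and neuropeptides, 1 was higher and 0 were lower in the double knockdown, 1 was higher and 2 were lower with shUBE4B, and 0 were called with shLSD1. Over all genes, 3.74% were higher and 3.83% lower in the double knockdown, and 5.59% and 4.47% with shUBE4B. NTS, the neurotensin precursor, rose in both. Its log2 signals were 5.28, 5.51 and 5.40 in the double knockdown and 5.11, 5.41 and 5.53 with shUBE4B, against 4.98, 4.94 and 4.85 with shCTRL. No array of those groups overlapped the control arrays. NTS was 0.47 higher in the double knockdown (limma, adjusted p = 0.0103) and 0.43 higher with shUBE4B (limma, adjusted p = 0.0163), and the call with shUBE4B ended without shUBE4B replicate 2 or 3. BDNF, a neurotrophin released from granules, was at -0.34 with shUBE4B (limma adjusted p = 0.0241, up to 0.0942 without shUBE4B replicate 2 or 3 or shCTRL replicate 1 or 3). CALCB was at -0.44 (limma adjusted p = 0.0416), but its call ended without any control array and without 5 others (shUBE4B replicates 2 and 3, shLSD1 replicates 1 and 3, and double-knockdown replicate 3). NTS and BDNF were dim, at the 11.5th and 13.1st percentile of brightness. RMA gives no call of whether their signals were above background.

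On the synaptic vesicle side, 28 membrane genes were measured besides SYP. In the double knockdown 0 were higher and 1 was lower, with shUBE4B 0 were higher and 2 were lower, and with shLSD1 none was called. Lower calls among all genes were 3.83% in the double knockdown and 4.47% with shUBE4B. SYPL2, which encodes a relative of synaptophysin, was lower in both, with log2 signals of 8.47, 8.44 and 8.47 in the double knockdown and 8.63, 8.54 and 8.61 with shUBE4B, against 8.84, 9.01 and 8.84 with shCTRL. These groups did not overlap, and the differences were -0.43 (limma, adjusted p = 0.000973) and -0.30 (limma, adjusted p = 0.0096). SYNGR3, the other gene lower with shUBE4B (-0.35, limma adjusted p = 0.0454), kept its call in 1 of 12 fits with an array left out, the fit without shCTRL replicate 1. VAMP2, the vesicle SNARE, was at 0.02 in the double knockdown and -0.05 with shUBE4B (limma adjusted p = 0.913 and 0.620).

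Vesicle docking and fusion was represented by 32 measured genes (of 34 listed). In the double knockdown 0 were higher and 4 were lower (RAB3C, CPLX1, RAB3A and NAPG). With shUBE4B 2 were higher (NAPB and STXBP5) and 4 were lower (CPLX1, RAB3C, RAB3A and UNC13A), and none was called with shLSD1. NAPG stood at -0.25 in the double knockdown (limma adjusted p = 0.0403). With shUBE4B, NAPB stood at 0.38 and STXBP5 at 0.34 (limma adjusted p = 0.0145 and 0.0289). The calls of NAPG, NAPB and STXBP5 were not checked with arrays left out or in other alternatives. The lower calls stand beside 3.83% of all genes in the double knockdown and 4.47% with shUBE4B. The 2 higher calls with shUBE4B stand beside 5.59%. The median difference was -0.08 in the double knockdown and -0.09 with shUBE4B, beside -0.01 and -0.03 over all genes. In the double knockdown, medians of HEK293 lineage, fibroblast, chromaffin, blood and colon epithelium markers were -0.08, 0.02, 0.01, 0.07 and -0.004. With shUBE4B they were -0.08, -0.10, -0.09, -0.04 and -0.04, so in that group the median was not particular to the docking and fusion genes. In the double knockdown, of these marker lists only the HEK293 lineage had a median near that of the docking and fusion genes.

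RAB3C, a vesicle GTPase, had log2 signals of 6.51, 6.68 and 6.40 in the double knockdown, 6.61, 6.74 and 6.57 with shUBE4B, 7.63, 7.48 and 7.12 with shLSD1, and 7.19, 7.24 and 7.18 with shCTRL. All arrays with UBE4B shRNA lay below all others, as for SCG3. The signal was 62.8% of control in the double knockdown (limma adjusted p = 0.00261) and 67.8% with shUBE4B (limma adjusted p = 0.00826), and the double knockdown stood at 54.3% of shLSD1 (limma adjusted p = 0.00151).

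CPLX1 (complexin 1) clamps and triggers SNARE-driven fusion. Its signals were 7.94, 8.08 and 7.80 in the double knockdown and 7.83, 7.77 and 7.42 with shUBE4B, against 8.40, 8.50 and 8.41 with shCTRL. Both groups lay below all control arrays. CPLX1 was at 70.8% of control in the double knockdown (limma adjusted p = 0.0119, and 0.0537 without its replicate 3) and at 58.9% with shUBE4B (limma adjusted p = 0.00109).

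RAB3A, the main synaptic vesicle relative of RAB3C, fell to 76.2% of control in the double knockdown (limma adjusted p = 0.00699) and to 73.7% with shUBE4B (limma adjusted p = 0.00396), and stood at 81.9% with shLSD1, which did not pass (limma adjusted p = 0.105). UNC13A, a vesicle priming factor, was at 75.0% of control with shUBE4B (limma adjusted p = 0.00969) and at 88.6% in the double knockdown, where it did not pass (limma adjusted p = 0.271). UNC13A in double knockdown and control did not overlap. Its signal was dim, at the 20.8th percentile of brightness.

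**Figure D3:**
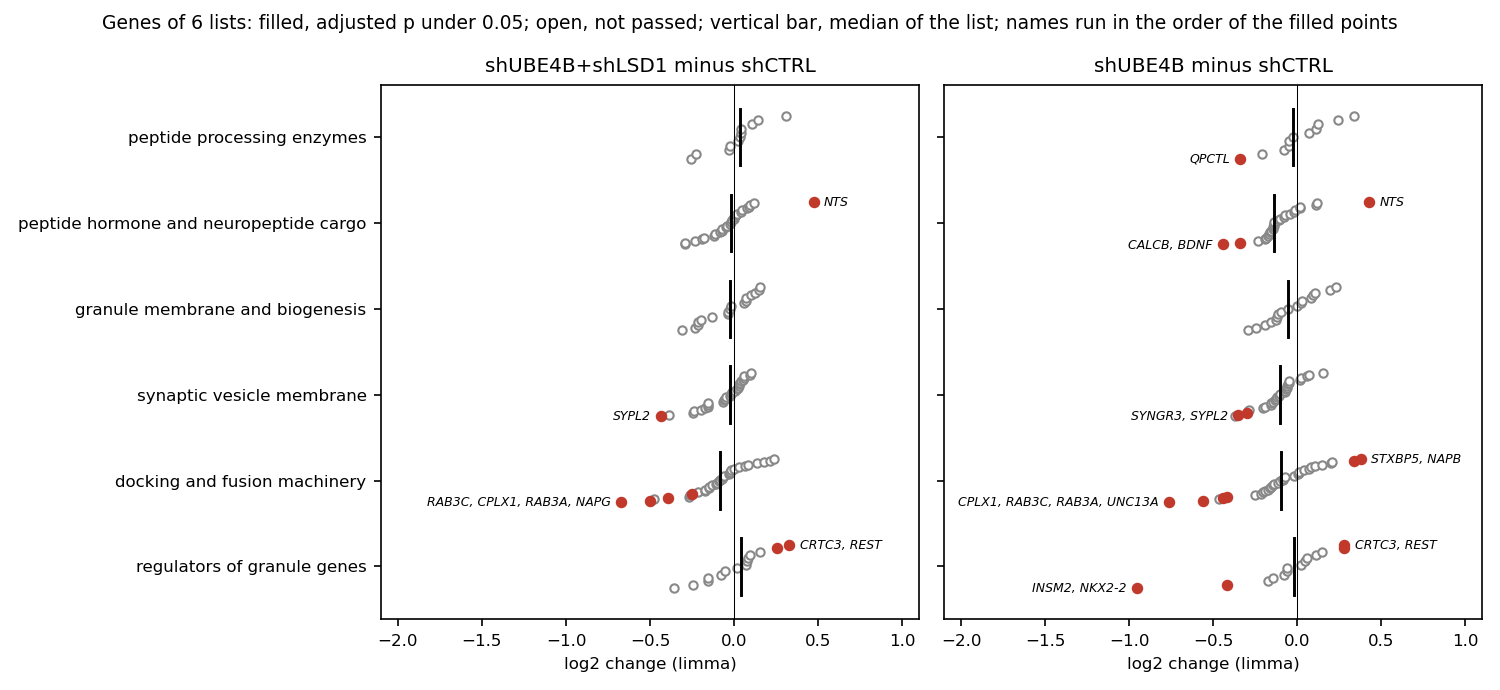
Log2 difference from shCTRL (horizontal axes) of each measured gene in 6 lists of granule and vesicle genes, in the double knockdown (left) and with shUBE4B (right). Filled points passed an adjusted p of 0.05 in limma and are named, open points did not pass, and vertical bars mark list medians, which lie between -0.14 and 0.04.

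Of 14 measured regulators of granule genes (of 18 listed), 2 were higher and 0 lower in the double knockdown, 2 were higher and 2 lower with shUBE4B, and none was called with shLSD1. Beside these, 3.74% of all genes were higher and 3.83% lower in the double knockdown, and 5.59% and 4.47% with shUBE4B. REST had log2 signals of 9.58, 9.42 and 9.53 in the double knockdown, 9.44, 9.48 and 9.48 with shUBE4B, 9.05, 9.23 and 9.23 with shLSD1, and 9.15, 9.19 and 9.22 with shCTRL. Every array with UBE4B shRNA lay above every array without it. REST was 0.33 higher in the double knockdown (standard error 0.07, limma adjusted p = 0.00882) and 0.28 higher with shUBE4B (limma adjusted p = 0.0187), and the call with shUBE4B ended without any of the 3 shUBE4B arrays (adjusted p up to 0.0653). RCOR1, the CoREST scaffold, was at -0.16 in the double knockdown and -0.17 with shUBE4B (limma adjusted p = 0.138 and 0.0825). Against shLSD1, which called 2.79% of all genes, the double knockdown gave 1 call higher (REST) and 1 lower (RCOR1) in this list. That REST difference was 0.34 (limma adjusted p = 0.0165), and its call ended without shLSD1 replicate 1 or double-knockdown replicate 1 or 3.

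CRTC3, a coactivator of CREB, was also higher, by 0.26 in the double knockdown (limma adjusted p = 0.0222) and 0.28 with shUBE4B (limma adjusted p = 0.0138). The CRTC3 call in the double knockdown ended without shCTRL replicate 1 or double-knockdown replicate 2 or 3, and the call with shUBE4B ended without shUBE4B replicate 1 or 3. CREB1 itself was at 0.08 in the double knockdown and 0.15 with shUBE4B (limma adjusted p = 0.608 and 0.212). NKX2-2, a transcription factor of neuroendocrine and islet cells, fell to 74.9% of control with shUBE4B (limma adjusted p = 0.00349) and stood at 84.6% in the double knockdown (limma adjusted p = 0.0555). INSM2, a zinc-finger relative of the neuroendocrine factor INSM1, was at 51.7% of control with shUBE4B (limma adjusted p = 0.0415). Its shUBE4B arrays ran from 4.93 to 5.84, and its call ended without any control array, shUBE4B replicate 1 or 2, shLSD1 replicate 2 or double-knockdown replicate 3. INSM2 was dim, at the 20.4th percentile of brightness.

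Most of the 14 measured neuronal markers did not pass. In the double knockdown 0 were higher, 3 were lower (ENO2, INA and UCHL1) and 11 did not pass. With shUBE4B 0 were higher, 4 were lower (ENO2, INA, UCHL1 and STMN2) and 10 did not pass, and none was called with shLSD1. Among all genes, 3.83% were lower in the double knockdown and 4.47% with shUBE4B. The median log2 difference of the 14 markers from control was -0.05 in the double knockdown and -0.13 with shUBE4B. Over all genes it was -0.01 and -0.03. ENO2, the neuronal enolase, was at 57.8% of control in the double knockdown (limma adjusted p = 0.00108) and 57.4% with shUBE4B (limma adjusted p = 0.00127), and UCHL1 at 76.2% and 78.8% (limma adjusted p = 0.00302 and 0.00725). The STMN2 call with shUBE4B ended without shCTRL replicate 2 or 3, shUBE4B replicate 1 or 2, shLSD1 replicate 2, or double-knockdown replicate 1 or 3. That of INA ended without shCTRL replicate 1 or 2 or any shUBE4B array, and the INA call in the double knockdown without shCTRL replicate 1 or double-knockdown replicate 2. The mean log2 signal over the 14 markers ran from 7.34 to 7.46 in the double knockdown, 7.31 to 7.41 with shUBE4B, 7.46 to 7.51 with shLSD1 and 7.48 to 7.60 with shCTRL. The part of these differences in the values of SCG3, SYP, CPLX1 and RAB3C was not tested.

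Markers of other cells showed few calls. None of 8 chromaffin cell markers, 6 fibroblast markers, 5 measured blood cell markers and 10 markers of the HEK293 lineage passed against control in any knockdown. Of 8 colon epithelium markers (the study also used a colon line), EPCAM alone was called lower, at 66.7% of control in the double knockdown and 68.2% with shUBE4B (limma adjusted p = 0.0232 and 0.0264), and both calls ended without shCTRL replicate 1 or 3. The EPCAM call with shUBE4B also ended without any shUBE4B array, and that in the double knockdown without its replicate 1 or 2. Lower calls made up 3.83% of all genes in the double knockdown and 4.47% with shUBE4B. The mean signals of the HEK293 lineage markers lay between the 35.5th and the 97.0th percentile of brightness (median 65.7), those of the 14 neuronal markers between 9.1 and 93.3 (median 44.0), and those of the blood cell markers between 3.9 and 31.2 (median 14.1). These ranges overlap and depend on the probes.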

How the data were processed

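Total RNA of the HEK293T dishes went on 12 arrays, 3 for each of the 4 groups. The deposited unit is the log2 signal of a transcript cluster. The authors obtained it with RMA in Partek, which subtracts background, forces the arrays to a common distribution and summarises probes, with hg19 as the genome build. Versions are not given in the sources used here. Such values cannot show whether cells of a group held more or less RNA in all. The labels and the paper name different labelling kits. Of 33297 clusters, 19460 had 1 gene symbol in the platform annotation, 1754 had several and 12083 were unnamed here. Each gene was read from its brightest cluster, and 31 symbols could not be updated. The test was limma 3.58.1 in R 4.3.3 (linear fit, moderated variances, no trend) over all 12 arrays with 4 group means, 8 residual and 5.13 prior degrees of freedom. The call was a Benjamini-Hochberg adjusted p under 0.05 over 18417 genes. The number of arrays limits the precision. The procedure was tested on simulated data.

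The members and lists were chosen with earlier results of these data known. Named were the members, UBE4B, KDM1A and REST, in each list at most 4 genes called against control, those that changed most, and the 5 genes most like SCG3 and SYP. STXBP5, NAPB, NAPG, PAM, VAMP2, RCOR1 and CREB1 were named after their values were seen. As alternatives, single arrays were left out, the variance model had trend and robust settings or array weights, the replicate number was a block, and the fit was limited to the 6 arrays compared. Arrays were also renormalized by quantiles or centred on medians, rows of a gene were averaged, and the 40% dimmest genes were removed. All clusters were tested, and the methods' t-test was run with Benjamini-Hochberg adjustment and the same threshold. Plots used matplotlib 3.10.9 under Python 3.11.15.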

Additional observations from a re-analysis of the deposited data

How the results depend on the processing

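Of the 6 genes not chosen by readout, the count of calls with shUBE4B against control was 1 (CPE). It was 1 to 2 when single arrays were left out, with CHGA added without shLSD1 replicate 1. In the methods' t-test it was 0, after the Benjamini-Hochberg adjustment and threshold used here. The paper's own cut-offs on p and fold change were not applied, so counts from this t-test are not the paper's calls. The count in the double knockdown against control (0) was 0 to 1 when single arrays were left out, the added gene being CPE without shCTRL replicate 3. CPE was also the gene when the count was 1 with trend and robust settings, 1 with a further quantile normalization, 1 with median-centred arrays, 1 without the 40% dimmest genes (where fewer genes were tested) and 1 with the replicate block. The count for double knockdown against shLSD1 (1, CHGB) was 0 to 1 when single arrays were left out. It was 0 without the 40% dimmest genes, which takes CHGB out, and 0 over all transcript clusters. It was also 0 in the methods' t-test after the same adjustment. For the changes beyond those removals, the cause was not tested. Over 842 alternative values that were tested for the 8 genes, 827 kept their side of the threshold, 8 lost and 7 gained a call, no called value changed sign and 28 that did not pass did. The 168 alternative values of the falls that chose SCG3 and SYP, which carry no test, all kept their sign. Of the other named genes, 734 values kept their call and 157 lost it. For those genes the losses given above are those with an array left out. With shUBE4B against control, the calls of CPLX1, RAB3A, RAB3C, UNC13A, NKX2-2, ENO2 and UCHL1 each ended in 1 other alternative. So did the double-knockdown calls of RAB3A, RAB3C, ENO2 and UCHL1 against control.

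Same-numbered arrays correlated between -0.08 and 0.33 after removal of group means, with 10 of 18 pairs over 0.1. Not every pair passed 0.1 and no label ties a number to a shared batch, so the arrays were not treated as paired. As a hint from the data and not the design, 9 of 12 arrays were closest to others of their own number. With the replicate block the double knockdown against control called 1 of the 6 genes, CPE, in place of 0. Testing every row of SCG3 and SYP was not run, since each has 1 row. SCG2, SCG3, SCG5, CHGA and CHGB were among the 40% dimmest genes, where small differences are hardest to measure.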
